A study of Mus musculus with 22 samples.

Results

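Nanog was switched on in whole mouse embryos from E6.5 and the RNA was read at E9.5, in 3 pools of induced embryos set against 2 pools of controls of the same line. These 5 pools are all that were analysed of the Nanog line at this stage, out of 22 pools in the series, and they were chosen by their labels alone (transgene, stage and doxycycline). Both groups were of the C57BL/6 background and carried the same alleles, ROSA26tg/+ and Nanogtg/+. The mothers of the induced embryos drank doxycycline from E6.5 to E9.5, and the mothers of the controls received none, so both groups carried the transgene. Each pool held 3 whole embryos. No group received doxycycline without a transgene, so the drug and the induced gene cannot be told apart. The labels do not give a promoter that would confine the induction to a cell type. The p-values measure the spread between pools. A second set of uninduced embryos at E9.5, 3 pools of the Oct4 line (ROSA26tg/+; Oct4tg/+, also C57BL/6 and in pools of 3), was used as an alternative control.

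Nanog encodes a homeodomain transcription factor of the inner cell mass and epiblast that is silenced in somatic tissues as gastrulation proceeds. At E9.5 the embryo has a beating heart, a closing neural tube and a first wave of red cells. These primitive red cells arise in the yolk sac, enter the circulation and mature there, filled with the embryonic globins made from Hbb-bh1, Hbb-y and Hba-x. Gata1 and Klf1 are the master transcription factors of red cells, and they switch on globins, haem synthesis and the spectrin membrane skeleton together.

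The induced gene was read first. Nanog (chr 6, 122657507 to 122664651, NCBIM37, plus strand) read 350, 345 and 346 CPM (read counts relative to the library's total, scaled by the TMM method) in the 3 induced pools, against 2.43 and 2.10 CPM in the 2 controls and 0.442, 0.99 and 1.16 CPM in the Oct4 line controls. The induced pools were nearly equal and far above every control. The log2 fold change was 7.27 ± 0.10 (SE; adjusted p = 1.4e-18, edgeR's quasi-likelihood F test with Benjamini-Hochberg adjustment, as for every adjusted p given here). Reads of the transgene and of the endogenous gene are counted together. Pou5f1, the gene of the partner factor Oct4, read 1.87, 1.41 and 0.578 CPM in induced pools, against 0.984 and 1.05 CPM in controls, and stayed under the filter on low counts. Of 30 pluripotency genes (Nanog and Pou5f1 are not among them), 16 were under the filter, among them Zfp42 with 3, Dppa3 with 10 and Esrrb with 40 reads in all 5 libraries together. Of the 14 tested, 1 was called higher in the induced pools and 4 lower against the line's own controls, beside 15.4% and 13.0% of all genes. With the GC correction described below 0 were higher and 1 was lower, and against the Oct4 line controls the counts were the same. Sox2, which is also a neural gene, was the only one called in the same direction in each of the 3 fits described next.

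The libraries differed in more than the induction. The induced pools had 4.77 M, 5.63 M and 5.15 M counts, against 15.8 M and 15.7 M in the controls and 7.72 M to 14.2 M in the Oct4 line controls. The 2 controls also had a profile of their own: genes of high GC content read low in them and genes of low GC content read high. Between the top and the bottom of 10 equal groups of genes by exonic GC the median log2 level differed by -0.04, 0.31 and 0.00 in the induced pools, by -0.64 and -0.54 in the controls and by 0.00 in each Oct4 line control. The labels name 2 sequencers without saying which read each library, so sequencing and induction cannot be told apart between these groups. Against the line's own controls 3772 of 13305 genes were called (28.4%), 2045 higher (15.4%) and 1727 lower (13.0%). Among the genes called higher, 749 were in the top GC group and 10 in the bottom one; among those called lower the numbers were 13 and 591. With the GC trend removed per library, 1105 genes were called (8.31%), 506 higher (3.80%) and 599 lower (4.5%), with 39 to 60 higher and 36 to 76 lower in each GC group. Against the Oct4 line controls, with no correction, 390 of 13463 were called (2.90%), 146 higher (1.08%) and 244 lower (1.81%). A total of 185 genes were called in the same direction in all 3 fits (1.39% of 13305), 58 higher (0.436%) and 127 lower (0.955%). Each of the 185 also separated all 3 induced libraries from all 5 controls, a separation that 853 genes showed upward (6.41%) and 1010 downward (7.59%). The Nanog line controls themselves differed from the Oct4 line controls at 3829 of 14963 genes (25.6%), or 556 (3.72%) with the GC correction. In what follows, "fell" and "rose" are used of genes called in all 3 fits unless a fit is named. The median log2 fold change over all genes was 0 in each fit. Without control 2 the fit against the line's own controls called 881 genes higher and 601 lower, and without control 3 it called 1258 and 903. The count in all 3 fits ran from 23 to 51 higher and from 75 to 129 lower as 1 library was left out: without induced 3 it was 23 and 80, without induced 1 it was 36 and 82, without control 3 it was 36 and 79, without the Oct4 line's control 2 it was 28 and 75, and without induced 2 it was 38 higher.

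**Figure D1:**
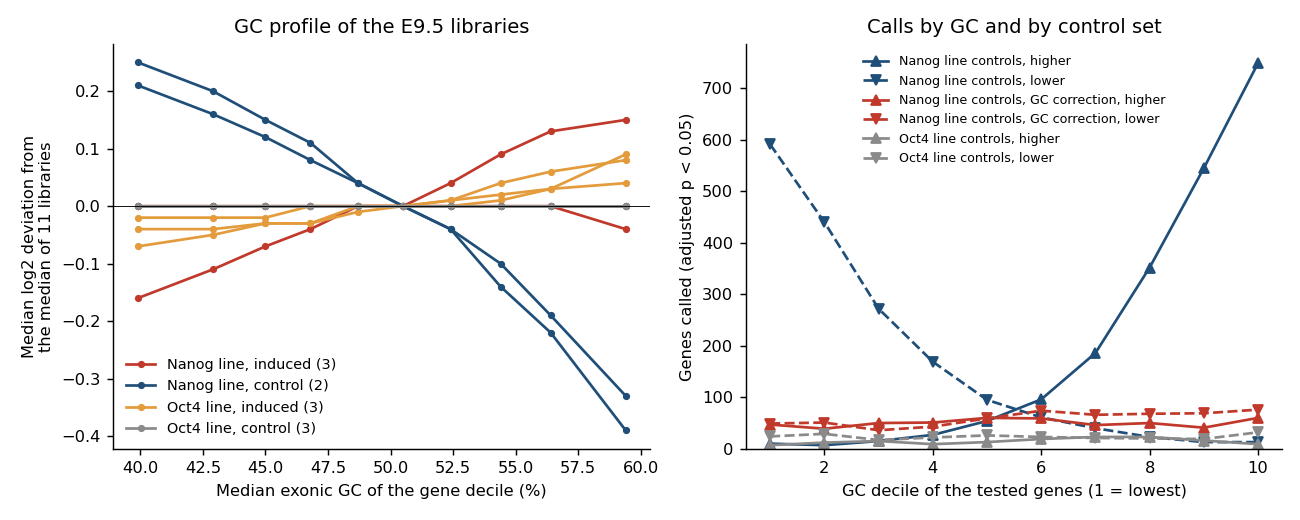
Left, median log2 deviation of each E9.5 library from the median of 11 libraries (y) in 10 groups of genes by exonic GC content in percent (x). Right, genes called at an adjusted p under 0.05 in each of these GC groups (x, 1 is the lowest) in the 3 fits, higher with upward and lower with downward triangles. The 2 Nanog line controls slope down with GC, and only the fit against them without correction gives calls that follow GC, from 591 lower in the lowest group to 749 higher in the highest.

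Embryonic globins were among the most abundant genes that fell. Hbb-bh1 (chr 7, 110990150 to 110991678), an embryonic beta-type globin, read 409, 352 and 514 CPM in induced pools, against 1790 and 2240 CPM in controls and 1420, 1790 and 1550 CPM in Oct4 line controls. Every induced pool was below every control. Its log2 fold change was -2.22 ± 0.23 (adjusted p = 0.0102), -2.13 with the GC correction (0.0294) and -1.89 against the Oct4 line controls (0.0226). Hbb-y (chr 7, 111000259 to 111001754), the other embryonic beta-type globin, read 567, 522 and 706 CPM, against 1880 and 2630 CPM in controls and 1670 to 2160 CPM in Oct4 line controls (-1.89 ± 0.24, adjusted p = 0.0168). Hba-x, the embryonic alpha-type globin zeta, read 414, 440 and 575 CPM in induced pools, against 1140 and 1470 CPM in controls and 1280 to 1740 CPM in Oct4 line controls. It was called against both sets of controls (-1.43, adjusted p = 0.0239, and -1.67, adjusted p = 0.0352) and missed the threshold with the GC correction (-1.67, adjusted p = 0.0518). In no embryonic globin did the groups overlap. These calls rest on few pools: without induced 1 the adjusted p was 0.0525 for Hbb-bh1 (-2.20), 0.0731 for Hbb-y and 0.0574 for Hba-x. Without induced 2 it was 0.0784 for Hbb-y and 0.116 for Hba-x, and Hba-x had 0.0541 without control 2 and 0.0685 without control 3. Of the 7 globins 4 were called lower against the line's own controls, 0 without induced 1 and 1 without induced 2; 2 were lower in all 3 fits.

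Among the adult globins the beta-type pair was higher and 1 of the alpha-type pair lower against the line's own controls. Each pair consists of near-identical copies, so the division of reads within it is uncertain. Hbb-b1, the adult beta major globin, read 57.8, 49.3 and 58.4 CPM in induced pools, against 18.8 and 18.4 CPM in controls and 15.9, 32.5 and 33.5 CPM in Oct4 line controls. It was called higher against the line's own controls (1.59 ± 0.10, adjusted p = 2.4e-08) and not against the Oct4 line controls (1.01, adjusted p = 0.249). Its neighbour Hbb-b2 had log2 fold changes of 1.14 (adjusted p = 0.00154) and 0.89 (0.222) in the same fits. The alpha globin copies were inconsistent between control sets: Hba-a1 had -1.22 (adjusted p = 0.0411) and -0.96 (0.135), and Hba-a2 had -0.02 (0.967) and -1.63 (0.0327). Without induced 1 or induced 2 the call of Hba-a1 was lost (0.129 and 0.163). All 7 globins summed to 1840 to 2380 CPM in induced pools, against 5590 and 7450 CPM in controls and 5240 to 6910 CPM in Oct4 line controls. Fewer red cells in a pool and less of this RNA per red cell cannot be told apart in bulk RNA.

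The red cell transcription factors fell with the globins. Klf1 (chr 8, 87425827 to 87429194), which activates globin genes, averaged 3.18 ± 0.933 CPM in induced pools (SD, n = 3) and 7.81 ± 1.03 CPM in controls (SD, n = 2), with 8.82 ± 1.25 CPM in Oct4 line controls (SD, n = 3). Its log2 fold change was -1.27 ± 0.24 (adjusted p = 0.00137). Gata1 (chr X, 7536386 to 7555197), the other master factor, read 3.94, 3.34 and 4.43 CPM in induced pools, against 7.61 and 9.78 CPM in controls and 8.27 to 9.60 CPM in Oct4 line controls (-1.14 ± 0.22, adjusted p = 0.0015). Ikzf1 (chr 11, 11585006 to 11672929), which encodes the zinc finger protein Ikaros, read 2.90, 3.70 and 3.86 CPM, against 11.6 and 12.1 CPM in controls and 10.6 to 11.5 CPM in Oct4 line controls (-1.74 ± 0.20, adjusted p = 2.41e-05). For each of the 3 every induced pool was below every control. The call against the line's own controls held with any 1 induced pool left out. In the other 2 fits this was not examined gene by gene. They were 3 of 21 tested blood transcription factors lower in all 3 fits, and 0 were higher. Of the same 21, 4 were called lower and 2 higher against the line's own controls, with a list median of -0.12. With the GC correction 6 were lower and 0 higher. The factors of earlier blood progenitors given below were not among the genes lower in all 3 fits. Runx1, Gfi1 and Spi1, also of the list, were under the filter and not tested. Tal1, which starts blood formation, read 22, 22 and 24.7 CPM in induced pools, against 26.1 and 28.6 CPM in controls and 24.2 to 32.7 CPM in Oct4 line controls (-0.24, adjusted p = 0.119), and was called lower with the GC correction alone (-0.36, adjusted p = 0.0343). Its partner Lmo2 had 0.05 (adjusted p = 0.802) and Myb, a factor of definitive progenitors, 0.04 (adjusted p = 0.916). Gata2, a progenitor factor that Gata1 displaces as red cells mature, had 0.67 (adjusted p = 0.0201) against the line's own controls, 0.33 (0.356) with the GC correction and -0.02 (0.975) against the Oct4 line controls. Its call was also lost without control 2 (0.14), control 3 (0.0822) or induced 1 (0.0554).

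Promoters of 4 blood genes whose induced pools were below every control are shown, as RefSeq gives them for the 250 bases before the start on the GRCm38.p6 build, each 5′ to 3′ on the strand of its gene. Capitals mark matches, on either strand, to the GATA factor core (AGATAA or TGATAA) and to the CACC-type core bound by Klf1 (CCNCNCCC). Hba-x is shown as the third embryonic globin, although it was called in 2 of the 3 fits and is not among the genes counted below. The promoters are those of the embryonic globins Hba-x (chr11:32276350-32276599, plus strand) and Hbb-y (chr7:103853208-103853457, minus strand), Klf1 itself (chr8:84901732-84901981, plus strand) and the haem synthesis gene Alas2 (chrX:150547167-150547416, plus strand).
Hba-x: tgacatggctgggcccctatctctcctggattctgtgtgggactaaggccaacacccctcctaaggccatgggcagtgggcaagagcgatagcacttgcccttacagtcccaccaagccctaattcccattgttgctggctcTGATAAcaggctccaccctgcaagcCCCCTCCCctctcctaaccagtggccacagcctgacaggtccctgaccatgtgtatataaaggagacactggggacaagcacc
Hbb-y: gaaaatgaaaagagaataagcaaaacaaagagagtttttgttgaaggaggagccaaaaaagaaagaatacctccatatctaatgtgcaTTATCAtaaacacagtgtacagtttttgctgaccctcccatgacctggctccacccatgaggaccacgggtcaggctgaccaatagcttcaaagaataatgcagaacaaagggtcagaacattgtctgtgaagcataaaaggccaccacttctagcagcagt
Klf1: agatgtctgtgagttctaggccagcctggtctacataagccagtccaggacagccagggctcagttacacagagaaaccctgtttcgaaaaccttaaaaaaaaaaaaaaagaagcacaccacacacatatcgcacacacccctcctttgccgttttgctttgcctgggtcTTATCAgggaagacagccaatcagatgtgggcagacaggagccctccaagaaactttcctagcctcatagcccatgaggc
Alas2: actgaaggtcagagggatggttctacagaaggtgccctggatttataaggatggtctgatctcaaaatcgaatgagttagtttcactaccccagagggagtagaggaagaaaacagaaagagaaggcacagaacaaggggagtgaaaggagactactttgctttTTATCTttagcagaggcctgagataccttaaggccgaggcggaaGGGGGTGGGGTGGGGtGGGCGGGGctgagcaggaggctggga
The 4 were picked by hand and not by a rule. Each of the 4 holds 1 GATA match, and the Alas2 window holds 4 overlapping or neighbouring CACC matches. They do not stand for the set counted next, in which most windows held no GATA match. Of the 31 blood-list genes that fell in all 3 fits, 22 were matched to 28 such windows, and 11 of these held a GATA match (39.3%), against 16.6% of all 32851 windows and 9.10% of the windows of tested genes. The CACC core was in 14 of 28, against 45.9% and 64.5%. The E-box of Tal1 dimers (CAGATG) was in 14.3%, against 14.4% and 9.63%, and the core TAATGG of Nanog sites in 0 of 28, against 6.57% and 3.92%. A match is a run of letters and not a measured binding site. Windows of blood-list genes that did not fall were not counted apart, so these shares cannot be tied to the fall.

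The proteins that build the red cell membrane formed the group with the most members that fell. Of 29 tested genes of the red cell list (4 more were under the filter), 16 were lower in all 3 fits and 0 higher. Against the line's own controls 19 were lower and 2 higher, with a list median of -0.81. Slc4a1 (chr 11, 102210138 to 102227517), the anion exchanger band 3 that anchors the skeleton, read 50, 46.6 and 66.9 CPM, against 125 and 140 CPM in controls and 121 to 162 CPM in Oct4 line controls (-1.26 ± 0.13, adjusted p = 0.000447). The skeleton beneath it fell as well. Spna1, alpha spectrin, read 8.71, 9.85 and 13.5 CPM in induced pools, against 32.7 and 36.3 CPM in controls (-1.66 ± 0.14). Spnb1, beta spectrin, read 30.5, 29.4 and 34.5 CPM in induced pools, against 56.2 and 65.9 CPM in controls (-0.93 ± 0.10), and Ank1, the ankyrin that ties spectrin to band 3, read 11.2, 12.3 and 13.3 CPM, against 29.3 and 33.1 CPM (-1.32 ± 0.13). Epb4.2, which binds band 3, had a log2 fold change of -1.54, and Add2, an adducin that caps the skeleton's actin, one of -1.06; it is outside the list and was chosen after its values were seen. Surface antigens fell too: Ermap by 1.45, Kel by 1.05 and Xk by 0.84 on the log2 scale. Among the members that did not pass, Prdx2, an antioxidant enzyme, read 484 to 506 CPM in induced pools, against 486 and 511 CPM in controls (0.01, adjusted p = 0.892), and Epb4.1, which links spectrin to actin, had 0.09 (adjusted p = 0.281).

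Genes of red cell metabolism, iron uptake and maturation were part of the same group. Pklr (chr 3, 88940064 to 88950706), the pyruvate kinase of liver and red cells, read 5.6, 4.4 and 7.71 CPM in induced pools, against 19.5 and 24.9 CPM in controls and 22.1 to 26.5 CPM in Oct4 line controls (-1.89 ± 0.19, adjusted p = 7.57e-06). Bpgm, which makes the 2,3-bisphosphoglycerate that tunes oxygen release, fell by 0.64. Tfrc, the transferrin receptor that brings iron into the cell, read 210, 162 and 195 CPM, against 322 and 314 CPM in controls and 256 to 307 CPM in Oct4 line controls (-0.73 ± 0.08). Hemgn, a nuclear protein of red cell precursors that is in no list, read 8.29, 6.69 and 6.94 CPM, against 19.2 and 25.3 CPM in controls (-1.59 ± 0.17). Epor, the erythropoietin receptor, had -0.81 (adjusted p = 0.0166). That call did not survive leaving out control 2 (0.0589), control 3 (0.129), induced 2 (0.0519) or induced 3 (0.0597), or the use of DESeq2 (0.0958). Car2, a carbonic anhydrase, was called against the line's own controls (-1.02) and missed the threshold against the Oct4 line controls (-1.01, adjusted p = 0.064). Trim10, an E3 ligase of maturing red cells, had -0.89 (adjusted p = 0.00934), which was lost without control 3 (0.0795).

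In the haem pathway the red cell form of the first enzyme and several later steps fell. Alas2 (chr X, 146981918 to 147005181), the red cell form of the rate-limiting enzyme, averaged 28 ± 3.07 CPM in induced pools (SD, n = 3) and 54.0 ± 9.08 CPM in controls (SD, n = 2), with 55.9 ± 7.15 CPM in Oct4 line controls (SD, n = 3). Its log2 fold change was -0.93 ± 0.12 (adjusted p = 0.000115). Alas1, the form used by other cells, read 23.0 to 26.4 CPM in induced pools, against 22.8 and 21.9 CPM in controls (0.19, adjusted p = 0.204). Slc25a37, mitoferrin, which imports iron into mitochondria, read 87.5, 83.6 and 99.5 CPM, against 166 and 182 CPM in controls and 153 to 183 CPM in Oct4 line controls (-0.93 ± 0.08, adjusted p = 9.48e-07). Fech (-0.50), the enzyme that inserts the iron, fell as well. Abcb10 (-0.49), a mitochondrial carrier that stabilises mitoferrin, Steap3 (-1.44), the ferrireductase of red cell endosomes, and Hebp1 (-0.72), a haem-binding protein, fell too. They were among 7 of 25 tested haem and iron genes lower in all 3 fits, with 0 higher. Against the line's own controls 10 were lower and 3 higher, with a list median of -0.10. Cpox, coproporphyrinogen oxidase, was lower against those controls (-1.01, adjusted p = 0.00315) and missed the threshold against the Oct4 line controls (-0.87, adjusted p = 0.0515). The haem-degrading Hmox1 had 0.24 (adjusted p = 0.209). With 1 model over all 22 libraries Alas2 had an adjusted p of 0.0684 and Hebp1 one of 0.17.

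**Figure D2:**
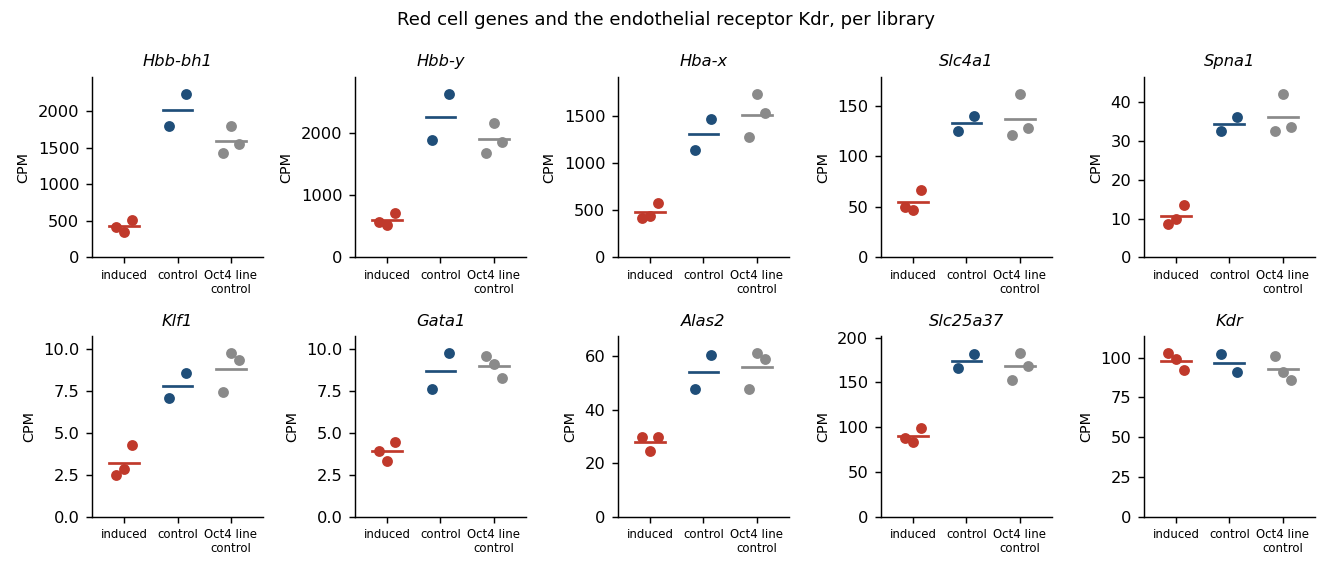
CPM (y) of 9 red cell genes and of the endothelial receptor gene Kdr in each induced pool (3), Nanog line control (2) and Oct4 line control (3); points are pools and lines are means. In the 9 red cell genes every induced pool is below every control, while the Kdr groups overlap at 92.4 to 103 CPM in induced pools and 85.7 to 102 CPM in controls. All of the 9 but Hba-x were called in all 3 fits, and every gene so called shows this separation.

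Of 10 tested megakaryocyte and platelet genes 3 were lower in all 3 fits and 0 higher, and 10 more were under the filter. Of these 3, Pf4 and Tubb1 passed the filter only through the controls, so they could hardly have been called higher. Both are also among the blood-list genes taken for the promoter shares above. Pf4, platelet factor 4, read 0.829, 0.352 and 0.193 CPM in induced pools, against 2.23 and 1.97 CPM in controls. Tubb1, the platelet form of beta tubulin, read 0.207, 0.352 and 1.16 CPM, against 2.69 and 2.56 CPM in controls. In both genes 2 of the 3 induced values lay under the floor of 3 counts (0.533 to 0.628 CPM in these pools), so they passed the filter through the controls and no fold change is given. Itgb3, the fibrinogen receptor's beta subunit that other cells also express, read 6.22, 8.45 and 6.17 CPM, against 12.1 and 11.4 CPM (-0.72 ± 0.18). Its partner Itga2b had 0.38 (adjusted p = 0.206). Without control 2 the calls of Pf4 (0.0679) and Itgb3 (0.0618) were lost, which left 1 of the list. Plek, a signalling protein of platelets and leukocytes outside the list, fell by 1.33. Macrophage and leukocyte markers were close to absent: 19 of 22 were under the filter, the whole list summed to 12.7 to 17.6 CPM in induced pools, against 12.8 and 15.7 CPM in controls and 18.2 to 21.4 CPM in Oct4 line controls, and 0 of the 3 tested were called. The lysosomal marker Cd68 read 1.45, 1.94 and 2.51 CPM, against 2.49 and 3.55 CPM in controls (-0.59, adjusted p = 0.199). Acp5, a tartrate-resistant phosphatase of osteoclasts and macrophages, nonetheless fell, at 3.32, 2.82 and 3.47 CPM against 10.2 and 11.9 CPM in controls and 10.5 to 14.1 CPM in Oct4 line controls (-1.77 ± 0.21, adjusted p = 3.23e-05).

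The genes of the endothelium, which shares an origin with blood, did not fall as a list. Of 35 tested endothelial genes 0 were lower and 1 was higher in all 3 fits. Over all genes the shares were 0.955% and 0.436%, so 0 of 35 is near the share. Against the line's own controls 8 were higher and 1 lower, beside 15.4% and 13.0% of all genes. The list median was 0.16 in that fit, 0.06 with the GC correction and 0.08 against the Oct4 line controls. The defining markers did not pass: Kdr, the main receptor for vascular endothelial growth factor, had a log2 fold change of 0.04 (adjusted p = 0.695), VE-cadherin, Cdh5, 0.01 (0.927), and Pecam1 0.13 (0.379). Tek, the angiopoietin receptor, had -0.26 (0.0837), and -0.42 (0.0247) without control 3. The gene that rose was Lyve1 (chr 7, 117994121 to 118006467), a hyaluronan receptor of lymphatic and yolk sac endothelium and of some macrophages. It read 4.97, 5.45 and 4.82 CPM in induced pools, against 1.31 and 0.525 CPM in controls and 0.773, 1.20 and 1.55 CPM in Oct4 line controls (2.48 ± 0.36, adjusted p = 0.000181). Lyve1 was low in the controls and passed the filter only through the induced pools.

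**Figure D3:**
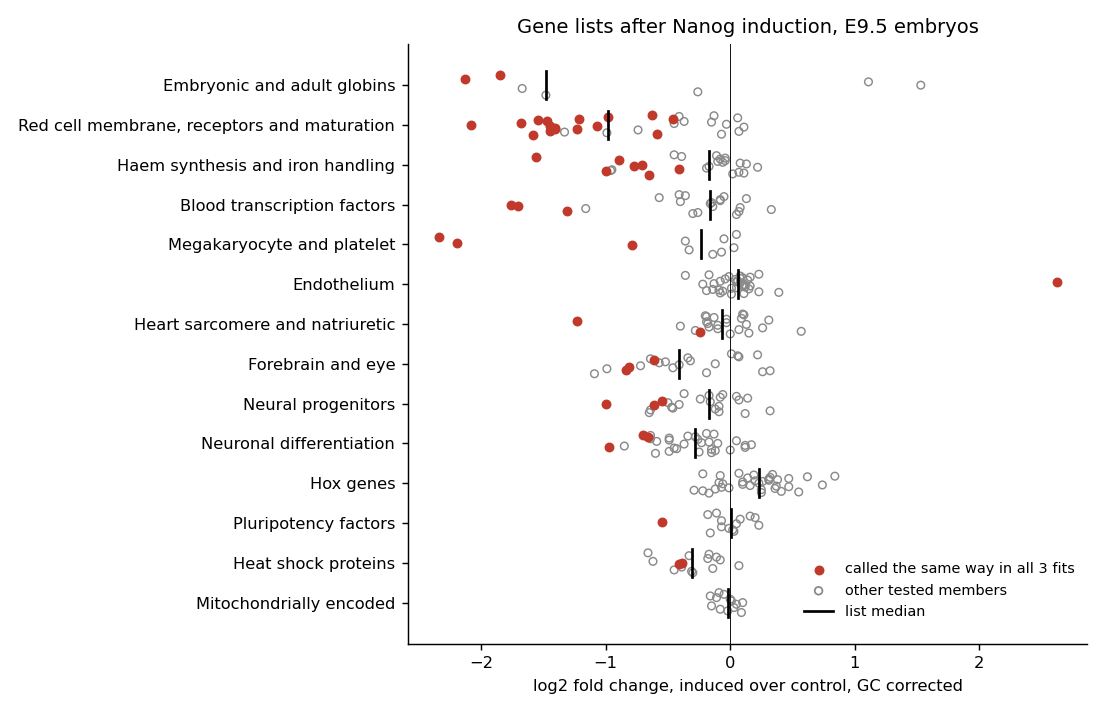
GC-corrected log2 fold change, induced over control (x), of every tested member of 14 gene lists (y); filled points were called in the same direction in all 3 fits, open points were not, and bars are list medians. The filled points of the blood lists lie left of 0, Lyve1 is the filled point of the endothelium list at 2.62, and no Hox or mitochondrially encoded gene is filled.

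Forebrain and neural genes were the next group with lower members, at smaller fold changes. Pax6 (chr 2, 105509053 to 105543317), a homeodomain factor of the eye, forebrain and spinal cord progenitors, read 41.9, 41.3 and 36.4 CPM in induced pools, against 64.0 and 69.7 CPM in controls and 60.6 to 62.6 CPM in Oct4 line controls (-0.72 ± 0.09, adjusted p = 3.7e-05). Emx2, a factor of the cortical primordium and of the urogenital ridge, read 6.22, 6.51 and 7.13 CPM, against 11.4 and 12.1 CPM in controls and 11 to 12.9 CPM in Oct4 line controls (-0.81 ± 0.17). Both were among 3 of 21 tested forebrain and eye genes lower in all 3 fits, with 0 higher. The list had 5 lower and 2 higher against the line's own controls, 5 and 0 with the GC correction and 8 and 0 against the Oct4 line controls. Its median was -0.23, -0.41 and -0.53 in these fits. Against the line's own controls the count of 5 lower genes was 2 without control 3, and 3 without induced 1 or induced 3. Otx2, a factor of the whole anterior brain, had -0.40 (adjusted p = 0.00925) and missed the threshold with the GC correction (0.0619) and against the Oct4 line controls (0.0836).

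Id4 below is named by its size, and Nr2e1, Dmrt3 and Dmbx1 were chosen after their values were seen. Nr2e1, the progenitor receptor Tlx of the forebrain, read 8.29, 7.74 and 6.75 CPM in induced pools, against 12.3 and 17.3 CPM in controls and 13.4 to 15.4 CPM in Oct4 line controls (-0.94 ± 0.18). Id4, an inhibitor of basic helix-loop-helix factors in neural progenitors, read 4.97, 3.17 and 5.78 CPM, against 12.2 and 14.6 CPM in controls and 11.8 to 13.9 CPM in Oct4 line controls (-1.52 ± 0.21, adjusted p = 0.000123). Dmrt3, a factor of the cortical primordium and of spinal interneurons, was close to its floor in the induced pools, at 0.415, 1.06 and 0.771 CPM against 2.76 and 2.36 CPM in controls. It passed the filter only through the controls. Without control 2 its adjusted p was 0.092. Dmbx1, a homeodomain factor of the midbrain, had -0.75 (adjusted p = 0.00548) and missed the threshold without control 3 (0.0626) and with the model over all 22 libraries (0.13).

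The general progenitor genes held 3 of 23 members lower in all 3 fits and 0 higher, namely Pax6, Sox2 and Pou3f3. Sox2 (chr 3, 34548927 to 34551383), which maintains neural progenitors and pluripotent cells, read 70.1, 77.6 and 82.3 CPM in induced pools, against 99.0 and 117 CPM in controls and 104 to 110 CPM in Oct4 line controls (-0.47 ± 0.08, adjusted p = 0.001). Pou3f3, a POU factor of the neural tube, read 21.8, 19.4 and 16.8 CPM, against 25.9 and 32.3 CPM in controls and 35.2 to 41.0 CPM in Oct4 line controls. Its log2 fold change was -0.57 against the line's own controls, -1.0 with the GC correction and -1.01 against the Oct4 line controls, and without control 3 the adjusted p was 0.086. Vim, an intermediate filament gene and the most abundant of the list, had 0.07 (adjusted p = 0.408). Without control 3 the list's count against the line's own controls was 4 lower, against 7 with all libraries. Of 31 neuronal differentiation genes 3 were lower in all 3 fits and 0 higher. Stmn2, a microtubule regulator of growing axons, read 15.3, 12.3 and 9.83 CPM, against 19.5 and 25.5 CPM in controls (-0.83 ± 0.17). Ina, alpha-internexin, read 10.8, 12.8 and 10.6 CPM, against 16.1 and 22.5 CPM (-0.73 ± 0.17). Nhlh2, a factor of newborn neurons, read 7.46, 7.57 and 6.94 CPM, against 11.2 and 15.2 CPM (-0.83 ± 0.18). Without control 3 the calls of Ina (0.0947) and Nhlh2 (0.0757) were lost, and with both lines' controls together those of Stmn2 (0.0699) and Ina (0.0789). Against the line's own controls 8 of the list were lower, and 3 without control 3. The pan-neuronal tubulin Tubb3 had 0.16 (adjusted p = 0.599), and without control 3 it was called higher (0.46, adjusted p = 0.00527).

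Several genes that fell belong to other systems. Apart from Hspa5, Ell2 and Cyp26b1 they were chosen after their values were seen. Hspa5, the chaperone BiP of the endoplasmic reticulum, read 798, 751 and 793 CPM in induced pools, against 1140 and 1100 CPM in controls and 903 to 1140 CPM in Oct4 line controls (-0.50 ± 0.05, adjusted p = 1.28e-05). Pdia4, a disulphide isomerase, fell by 0.42, Canx, calnexin, by 0.46, and Xbp1, the transcription factor that raises chaperone genes, by 0.49. Against the Oct4 line controls with the GC correction added none of the 4 passed (adjusted p = 0.127, 0.0616, 0.077 and 0.0878). Slc39a8, a zinc and manganese importer, read 20.5, 23.2 and 25.6 CPM, against 49.1 and 56.6 CPM in controls and 46.4 to 52.9 CPM in Oct4 line controls (-1.17 ± 0.11, adjusted p = 2.88e-06). Irs4, an adaptor of insulin signalling, read 13.7, 14.6 and 12.7 CPM, against 32.0 and 31.4 CPM in controls and 30.4 to 32.1 CPM in Oct4 line controls (-1.19 ± 0.12). Ell2, an elongation factor of RNA polymerase II, read 13.9, 15.7 and 19.9 CPM, against 39.2 and 40.7 CPM in controls and 27.8 to 36.3 CPM in Oct4 line controls (-1.25 ± 0.12). Adra2b, an alpha adrenergic receptor, read 1.04, 0.88 and 1.35 CPM, against 4.66 and 5.19 CPM in controls and 4.53 to 5.30 CPM in Oct4 line controls (-2.15 ± 0.32). Its induced reads were few, and it passed the filter only through the controls. Cyp26b1, which degrades retinoic acid, fell by 0.51, which did not pass with the model over all 22 libraries (0.307). Sycp1, a component of the meiotic synaptonemal complex, had 0 reads in the 3 induced pools, against 3.15 and 2.17 CPM in controls and 1.68 to 2.40 CPM in Oct4 line controls. Against a floor of 3 reads over the induced group (0.191 CPM) it was at least 13.9-fold lower. Sycp1 too passed the filter only through the controls.

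The genes that rose came from several systems. Trh, Selenbp1, Lgr5 and Sox10 were named by rule, and the others below after their values were seen. Trh (chr 6, 92192055 to 92194644), the precursor of thyrotropin-releasing hormone, read 22.8, 24.8 and 23.7 CPM in induced pools, against 5.84 and 8.67 CPM in controls and 6.96 to 8.01 CPM in Oct4 line controls (1.73 ± 0.17, adjusted p = 4.66e-06). Selenbp1 (chr 3, 94736978 to 94748680), a selenium-binding methanethiol oxidase, read 12.2, 14.8 and 23.7 CPM, against 2.76 and 2.49 CPM in controls and 2.58 to 4.08 CPM in Oct4 line controls (2.71 ± 0.27). Its induced pools spread widely and lay far above every control. Lgr5, a receptor for R-spondin that marks Wnt-responsive progenitors, read 9.54, 9.85 and 11.6 CPM, against 6.30 and 5.71 CPM in controls and 5.04 to 6.72 CPM in Oct4 line controls (0.80 ± 0.18). With the controls thinned to the depth of the induced pools its adjusted p was 0.0748. Sox10, a factor of migrating neural crest, read 22, 27.8 and 24.5 CPM, against 10.6 and 14.6 CPM in controls. In the Oct4 line controls it read 16.3 to 18.6 CPM. The log2 fold change was 1.0 against the line's own controls, 0.48 with the GC correction and 0.48 against the Oct4 line controls, and with both lines' controls together its adjusted p was 0.0934. Dmrt2, a factor of the dermomyotome, read 20.5, 19.9 and 20.4 CPM, against 12.4 and 9.45 CPM (0.91 ± 0.15). The heparin-binding growth factors Mdk (0.58) and Ptn (0.36), the growth factor-binding protein Igfbp3 (0.47) and the glutathione transferases Gsta4 (0.61) and Gstp1 (0.63) rose by less. Ptn and Igfbp3 did not pass with the model over all 22 libraries (adjusted p = 0.453 and 0.591). Ucp2, a mitochondrial carrier, read 35.2, 39.9 and 40.3 CPM, against 20.8 and 24.6 CPM in controls and 22.4 to 32.0 CPM in Oct4 line controls (0.79 ± 0.11).

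**Figure D4:**
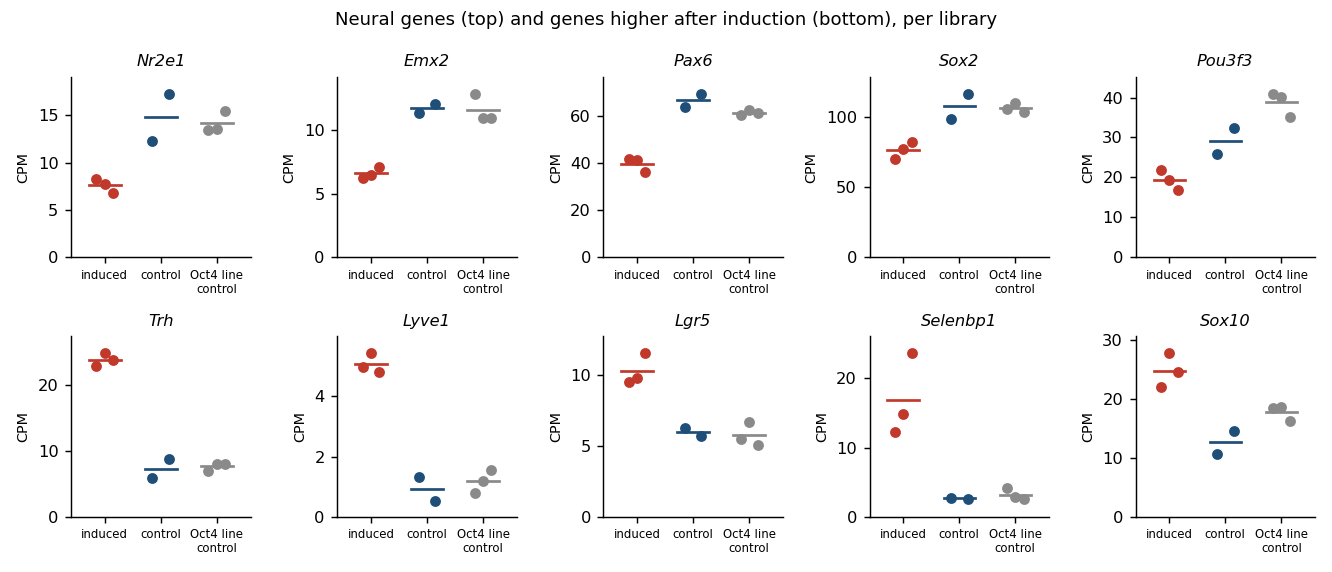
CPM (y) of 5 neural genes that fell (top) and 5 genes that rose (bottom) in each induced pool (3), Nanog line control (2) and Oct4 line control (3); points are pools and lines are means. No induced pool overlaps a control in any panel, with Trh at 22.8 to 24.8 CPM in induced pools and 5.84 to 8.67 CPM in controls. The panels were taken from the 185 genes called in all 3 fits, each of which shows this separation. Over all tested genes 6.41% show it upward and 7.59% downward.

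Other patterning systems gave calls that depended on the control set. Hox genes give cells their position from head to tail, and of 35 tested 12 were higher and 0 lower against the line's own controls, with a list median of 0.34. With the GC correction 3 were higher, and against the Oct4 line controls 0 were, with a median of 0.18. Hoxb5, a member of the trunk paralogues, read 12.0, 9.85 and 14.5 CPM in induced pools, against 6.82 and 6.37 CPM in controls and 8.72 to 10.9 CPM in Oct4 line controls (0.89, adjusted p = 0.00242, and 0.31, adjusted p = 0.382). Of 24 heart muscle and natriuretic genes 2 were lower in all 3 fits: Atp2a2, the calcium pump of the sarcoplasmic reticulum (-0.29 ± 0.06), and Nppb, brain natriuretic peptide, at 1.04, 1.06 and 1.16 CPM against 3.08 and 2.36 CPM in controls (-1.30 ± 0.37). Nppb passed the filter only through the controls. Without control 2 Nppb had an adjusted p of 0.203. Of 21 heart transcription factors 0 were called in all 3 fits in either direction, and the same was true of 26 tail bud genes. Over all genes 1.39% were so called, so these counts are near the share.

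A pair of abundant groups showed where the line's own controls stood apart. All 13 mitochondrially encoded messenger genes were called lower against the line's own controls, 1 was with the GC correction and 0 against the Oct4 line controls. Their sum was 21800 to 23900 CPM in induced pools, against 28800 and 29300 CPM in controls and 23200 to 24100 CPM in Oct4 line controls, so the induced pools lay with the second set. Of 15 heat shock genes 10 were lower against the line's own controls, 10 with the GC correction and 2, Hspa5 and Hspa4l, against the Oct4 line controls. Hspa8, the constitutive heat shock protein of the cytosol, read 2450, 2490 and 2510 CPM in induced pools, against 3870 and 3920 CPM in controls and 1600, 1970 and 2770 CPM in Oct4 line controls. Its log2 fold change was -0.63 in the first comparison and 0.24 (adjusted p = 0.704) in the second. Among the ribosomal proteins Rps13 read 207, 197 and 220 CPM in induced pools, against 72.6 and 83.3 CPM in controls and 115 to 166 CPM in Oct4 line controls (1.44, adjusted p = 3.56e-09, and 0.54, adjusted p = 0.155). Of the 37 genes called by at least 4-fold against the own controls, 24 were predicted, clone-named or pseudogene models.

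Markers of tissues outside the embryo were summed per library. The trophoblast list summed to 23.2 to 29.3 CPM in induced pools, against 18.1 and 23.8 CPM in controls and 21.0 to 31.0 CPM in Oct4 line controls, and 9 of its 22 members, the spongiotrophoblast gene Tpbpa among them, had no read in the 5 libraries. The visceral endoderm and yolk sac list summed to 129 to 144 CPM, against 139 and 170 CPM in controls and 149 to 166 CPM in Oct4 line controls. In all 3 fits 0 of its 9 tested members were called, and 17 more were under the filter. Over all genes 1.39% were so called, so 0 of 9 is near the share. The list of maternal decidua and blood summed to 119 to 133 CPM, against 82.1 and 82.8 CPM in controls and 90.5 to 131 CPM in Oct4 line controls. It holds the adult globins Hbb-b1 and Hbb-b2, and its other 26 members summed to 46.5 to 55.6 CPM in induced pools, against 53 and 56 CPM in controls and 59.1 to 89.4 CPM in Oct4 line controls. The part of attached tissue in the fall of the red cell genes was not tested.

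The response of red cell genes to Nanog differed from their response to Oct4 at the same stage. Induction of Oct4 (3 induced pools against the 3 Oct4 line controls) called 1297 of 13957 genes (9.29%), 654 higher (4.69%) and 643 lower (4.61%). The difference between the 2 inductions, each over its own line's controls, was tested as an interaction over the 4 groups, and 568 of 14604 genes were called with and without the GC correction (3.89%), 294 higher (2.01%) and 274 lower (1.88%) in the Nanog line. In the red cell list 19 of 32 genes had a lower response in the Nanog line and 0 a higher one. For the haem list the numbers were 12 of 25 and 0, for the globins 4 of 7 and 0, and for the blood factors 5 of 22 and 0. Oct4 induction by itself had 7 of 30 red cell genes higher and 1 lower, and 10 of 25 haem genes higher and 0 lower. Spna1 read 51.6, 53 and 43.9 CPM in Oct4-induced pools, against 32.7, 42.3 and 33.6 CPM in their controls (0.42, adjusted p = 0.027), and the difference between the responses was -2.10 ± 0.19 (adjusted p = 4.12e-06). Hbb-bh1 read 2320, 2290 and 1850 CPM in Oct4-induced pools, against 1420, 1790 and 1550 CPM in their controls (0.44, adjusted p = 0.16), with a difference of -2.67 ± 0.26 (adjusted p = 0.00101). For Klf1 the difference was -1.93 ± 0.29 and for Alas2 -1.53 ± 0.17. The interaction shares no library between its 2 arms, but the 3 Oct4 line controls were also used above to choose the genes called in 3 fits. Without control 2 the interaction called 837 genes, against 1970 (13.5%) with all libraries and no correction.

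**Figure D5:**
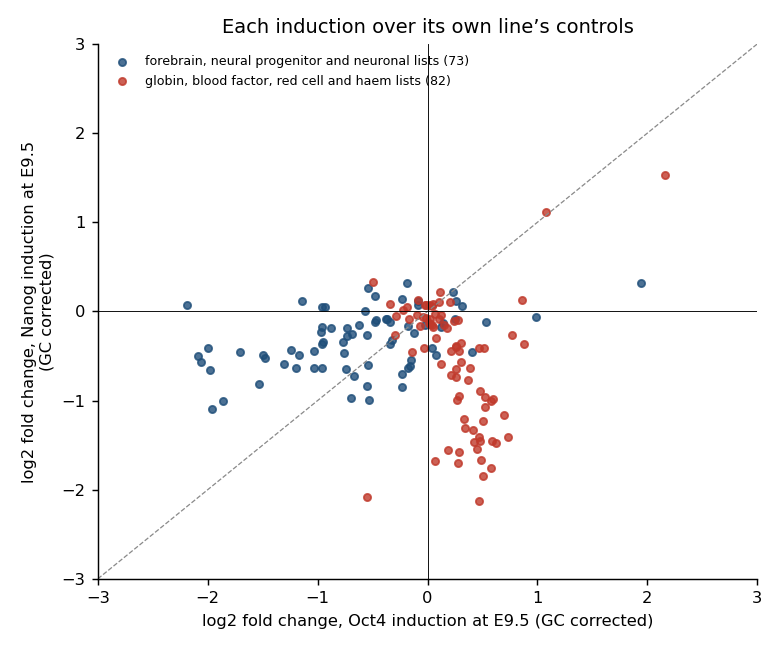
GC-corrected log2 fold change after Nanog induction (y) and after Oct4 induction (x) at E9.5, each over its own line's controls, for tested genes of the blood lists (82) and the neural lists (73); the dashed line marks equal responses. Most blood genes lie below the line, with y down to -2.13 for Hbb-bh1, and most neural genes lie left of 0 on x.

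Forebrain and neuronal genes were lower after Oct4 induction as well. Of the forebrain list 11 of 23 genes were lower and 3 higher, and 19 of 33 neuronal genes were lower and 2 higher. Pou3f3 read 11, 13.9 and 9.88 CPM in Oct4-induced pools, against 41.0, 40.2 and 35.2 CPM in their controls (-1.79 ± 0.11), and the difference between the responses was 1.21 ± 0.18 (adjusted p = 0.000183). Nr2e1 had -2.25 after Oct4 (difference 1.31), Nhlh2 -2.02 (1.19) and Dmbx1 -2.12 (1.36). Pax6 and Sox2 were exceptions, with -0.19 and -0.13 after Oct4 and differences of -0.54 (adjusted p = 0.00113) and -0.34 (adjusted p = 0.0248). In the forebrain list 5 of 24 genes had a higher and 2 a lower response in the Nanog line, in the progenitor list 7 of 23 and 4, and in the neuronal list 2 of 34 and 1. The difference for Nhlh2 was lost without control 2 (0.0706) and that for Sox2 without control 3 (0.177), induced 1 (0.0597) or induced 2 (0.0529). Of the genes that rose, Trh had -0.39 after Oct4 (difference 2.13 ± 0.25, adjusted p = 9.09e-06), Lgr5 -0.61 (1.41), Selenbp1 0.80 (1.91) and Lyve1 0.30 (2.18, lost without control 3 at 0.0668). The Hox list, with 21 of 34 genes higher and 0 lower after Oct4, had 0 of 35 higher and 4 lower responses in the Nanog line.

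The same transgene had been induced in a second experiment up to E7.5, from E4.5, with 3 induced pools and 2 controls of 8 to 12 embryos. There 1099 of 14118 genes were called (7.78%), 418 higher (2.96%) and 681 lower (4.82%). The libraries of these groups also differed in make-up. Gene models under 80 nt summed to 31.3 and 36.8 CPM in the E7.5 controls, against 0.677, 1.13 and 0.575 CPM in the induced pools. Mitochondrial genes held 3.3% and 3.63% of counts in the controls, against 5.27%, 6.72% and 8.26%. Depth was 6.59 M and 8.54 M in the controls, against 10.9 M, 26 M and 6.95 M. The interaction between the stages called 1108 of 14897 genes with and without the GC correction (7.44%), 756 with a higher (5.07%) and 352 with a lower (2.36%) response at E9.5. Hox genes separated the stages: 12 of 24 tested were lower and 0 higher at E7.5, with a list median of -2.64, and 21 of 35 had a higher response at E9.5, with 0 lower. Of 22 blood factors 11 were lower and 1 higher at E7.5. For 5 of 22 the response was higher, and for 1 lower, at E9.5. In the red cell list 4 of 30 genes had a higher and 6 a lower response at E9.5, and in the haem list 0 of 25 a higher and 4 a lower one. Ikzf1 had -2.19 at E7.5 and -1.74 at E9.5, and its difference of 0.44 ± 0.34 did not pass (adjusted p = 0.441). Hbb-bh1 had -6.04 at E7.5, with a difference of 3.81 ± 0.51 (adjusted p = 0.00444). Endothelial genes were lower for 7 of 34 at E7.5 and higher for 0, and 8 of 37 had a higher response at E9.5, with 0 lower. Without control 2, control 3 or induced 2 of the E9.5 pools the interaction called 810, 812 and 1192 genes, against 1907 (12.8%) with all libraries and no correction. The stages differ in the start and route of doxycycline, so stage and treatment cannot be told apart. The part of the library differences at E7.5 in its calls and in the interaction was not tested.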

How the data were processed

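The authors deposited expected counts per Ensembl gene, estimated with RSEM. Tools named in the submitters' processing notes are Picard, cutadapt, limma and RSEM 1.17, with the genome build NCBIM37. Sequencer per library and strandedness are not given in the sources used here. Total RNA of whole embryos was read as Illumina cDNA libraries. The 5 libraries of the comparison held 4.77 M to 15.8 M counts, so a floor of 3 counts was 0.533 to 0.628 CPM in induced pools and 0.19 to 0.192 CPM in controls. IDs without annotation (0.143% to 0.164% of counts) had no symbol. Of the 37680 IDs, 37309 were matched to an annotation.

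The deposited expected counts were rounded, filtered with filterByExpr and tested with edgeR 4.0.16 (TMM, robust quasi-likelihood F test, R 4.3.3) at a Benjamini-Hochberg adjusted p of 0.05 over all genes. The GC correction subtracted, per library, a lowess trend (span 0.3) as an offset. Interactions were fitted over 11 libraries with Oct4 at E9.5 and 10 with Nanog at E7.5. limma 3.58.1 and DESeq2 1.42.0 were alternatives. The scripts were tested on simulated data. Genes were named by rule: the 20 largest fold changes in each direction among called genes of at least 5 CPM, the lowest p-values per list, and all tested members of the blood, endothelial, Hox and pluripotency lists; others are marked as chosen after their values were seen. The members, the 55 gene lists (1138 symbols, 907 tested) and the tests were chosen with earlier results of these data known.
Results of some items are not reported here.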

Additional observations from a re-analysis of the deposited data

Results flagged for a closer look

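The following responses differed between Nanog and Oct4 induction at E9.5 by the interaction test, each over its own line's controls, with and without the GC correction. Values are the log2 fold change after Nanog minus that after Oct4. Red cell genes had a lower response to Nanog: -2.67 for Hbb-bh1, -2.11 for Epb4.2, -2.10 for Spna1, -1.92 for Ermap, -1.72 for Slc4a1, -1.67 for Ank1 and -1.32 for Spnb1. The factors among them had -2.01 for Ikzf1, -1.93 for Klf1 and -1.51 for Gata1, and the haem and iron genes -1.53 for Alas2 and -1.40 for Slc25a37. The neural factors Pax6 and Sox2 had -0.54 and -0.34, and the value of Sox2 did not pass without control 3, induced 1 or induced 2. Other neural factors had a higher response to Nanog: 1.19 for Nhlh2, 1.21 for Pou3f3, 1.31 for Nr2e1 and 1.36 for Dmbx1. Genes that rose after Nanog had 1.41 for Lgr5, 1.91 for Selenbp1, 2.13 for Trh and 2.18 for Lyve1. The values of Nhlh2 and Lyve1 also depended on a single control, as given above, and Lyve1 was low in the controls. Groups of 2 or 3 pools were too small for a test of single libraries that stand apart.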

How the results depend on the processing

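The counts of higher and lower genes (2045 and 1727) depended on the control set and the GC trend: 506 and 599 with the GC correction, 146 and 244 against the Oct4 line controls, 35 and 103 against both lines' controls, 1296 and 1118 with DESeq2, and 1090 and 868 in 1 model over all 22 libraries. Combinations added after seeing the data gave 228 and 354 (GC correction, Oct4 line controls) and 158 and 296 (GC correction, both lines' controls). Leaving out 1 library gave 881 to 1897 higher and 601 to 1590 lower, and 23 to 51 higher and 75 to 129 lower in all 3 fits, the second pair added after seeing the data. The interaction with Oct4 called 757 with the GC correction and 837 to 2178 with 1 library left out, and that with E7.5 called 810 to 1543. The cause was not tested. Reversed values were those of Gata2 (-0.02 against the Oct4 line controls, -0.06 with the GC correction added) and Hspa8 (0.24 and 0.23). Of 1793 alternative values of 79 named genes called in all 3 fits, 1700 stayed past the threshold, 93 did not, and 0 reversed. The GC correction and the Oct4 line controls are counted among these alternatives. Both were used to choose the 79 genes, so all 79 stayed there by selection. Other alternatives reuse the same libraries, so the tally is no independent check. Over 34 other named genes, 103 of 775 values lost and 14 gained a call.

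Replicate numbers 2 and 3 occur in both groups, and the deviations of same-numbered pools had correlations of -0.08 and 0.00. With 2 controls the deviations of 1 mirror those of the other, so this check could hardly show a pairing. Whether same-numbered pools share more than a number is not known. The replicate block gave 1867 higher and 1492 lower genes, or 186 and 261 with the GC correction. Replicates differed by more than sampling noise (chi-square per degree of freedom 1.60 to 4.30). At the depth of the induced pools, genes near 0.533 to 0.628 CPM could not be measured.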
